A study of Homo sapiens with 60 samples.

Results

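The 31 genes described here carry out or govern the synthesis of cholesterol and of fatty acids. They were chosen by name from known pathway roles, with earlier results of these data known, and their Ensembl identifiers were looked up among the 60675 genes of a table of estimated read counts. All 31 were found, and all 31 passed the filter on low counts that left 17190 genes for testing. By role they comprised 7 genes of the mevalonate and isoprenoid steps, 11 genes of the sterol steps from squalene onward, 4 regulators and sterol carriers, and 9 enzymes of fatty acid and glycerolipid synthesis.

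The cells were SW1783, an established line from a human astrocytoma, grown in L-15 medium and treated for 24 hours. Each of 6 water extracts was given at 500, 100 and 20 µg/mL (high, medium and low dose) with 3 libraries per dose. These were the single herbs Citri Unshius Pericarpium, Cimicifugae Rhizoma, Bupleuri Radix and Aconiti Lateralis Radix Preparata, and the formulas Yijung-tang and Banhasasim-tang, below called Citri, Cimicifugae, Bupleuri, Aconiti, Yijung and Banhasasim. A further formula, Bojungikgi-tang, had 1 library per dose at those doses, and the vehicle group had 3 libraries. The labels give 0.1% DMSO for the vehicle, whereas the series text gives 2%, and they do not say whether the extracts carried DMSO. All labels name batch B and a second sequencing. Sample codes place Citri and Cimicifugae in set 5, Bupleuri and Aconiti in set 6, and Yijung and Banhasasim in set 7. Bojungikgi-tang is in set 8, and the vehicle is in a set of its own. In a comparison with the vehicle, extract and code set therefore cannot be told apart, while the high and low dose of an extract lie within 1 code set. All comparisons with the vehicle share its 3 libraries.

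Cholesterol is built from acetyl-CoA through mevalonate, isoprenoid diphosphates, squalene and lanosterol, and fatty acids are built from the same acetyl-CoA pool by carboxylation, chain synthesis, elongation and desaturation. Most of these enzymes are transcribed under SREBP-1 and SREBP-2, encoded by SREBF1 and SREBF2, which are held in the endoplasmic reticulum by INSIG proteins when sterols are plentiful and released to the nucleus when sterols are scarce. SREBF1 and SCD are also known targets of the liver X receptors, which respond to oxysterols and switch on sterol export genes such as ABCA1. In astrocytes and glial tumour cells the pathway supplies membrane sterols and unsaturated lipids.

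Promoter windows from RefSeq (build GRCh38.p14, 250 bases before to 50 after the annotated start) were available for 27 of the 31 genes. Of these, 9 had more than 1 window (33.3%, against 19% of all genes with a window). The windows of INSIG1 and SCD are shown because these genes had the widest ranges between groups, that of HMGCS1 because it differed from the vehicle in the most comparisons, and that of SREBF2 because it alone held the sterol regulatory element searched for. All are written 5′ to 3′ on the strand of the gene, and capitals mark the CCAAT box (CCAAT, or ATTGG on the other strand) and, in SREBF2, the sterol regulatory element as well (TCACNCCAC, searched on both strands). HMGCS1 had a second annotated start, and the window there, at chr5:43313132-43313431, held no CCAAT box and is not shown. The marked motifs did not overlap each other in these 4 windows.
INSIG1 promoter, chr7:155297628-155297927, plus strand: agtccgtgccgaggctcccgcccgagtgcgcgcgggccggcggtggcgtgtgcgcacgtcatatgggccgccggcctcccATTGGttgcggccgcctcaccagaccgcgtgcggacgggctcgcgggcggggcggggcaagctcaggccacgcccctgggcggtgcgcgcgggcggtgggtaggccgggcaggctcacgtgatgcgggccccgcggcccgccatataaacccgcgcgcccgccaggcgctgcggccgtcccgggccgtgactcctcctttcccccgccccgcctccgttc
SCD promoter, chr10:100346983-100347282, plus strand: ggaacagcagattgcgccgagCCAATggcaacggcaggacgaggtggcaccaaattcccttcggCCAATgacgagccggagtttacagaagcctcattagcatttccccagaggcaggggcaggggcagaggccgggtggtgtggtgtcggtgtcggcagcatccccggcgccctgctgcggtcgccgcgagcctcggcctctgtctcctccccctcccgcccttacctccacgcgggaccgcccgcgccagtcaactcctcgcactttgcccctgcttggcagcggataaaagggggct
HMGCS1 promoter, chr5:43313363-43313662, minus strand: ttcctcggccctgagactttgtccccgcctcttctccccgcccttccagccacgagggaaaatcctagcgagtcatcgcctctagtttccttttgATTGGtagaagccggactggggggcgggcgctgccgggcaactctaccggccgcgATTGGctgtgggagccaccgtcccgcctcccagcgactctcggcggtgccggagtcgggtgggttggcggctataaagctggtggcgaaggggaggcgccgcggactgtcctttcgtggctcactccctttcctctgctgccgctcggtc
SREBF2 promoter, chr22:41832855-41833154, plus strand: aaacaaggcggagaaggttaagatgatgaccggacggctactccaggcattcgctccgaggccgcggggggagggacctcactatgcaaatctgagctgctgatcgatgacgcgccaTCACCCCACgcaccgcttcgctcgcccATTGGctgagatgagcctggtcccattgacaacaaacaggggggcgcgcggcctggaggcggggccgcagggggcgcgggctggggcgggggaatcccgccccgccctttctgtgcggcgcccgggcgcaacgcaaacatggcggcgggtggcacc

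The CCAAT box lay at −170 in INSIG1, at −229 and −186 in SCD, at −155 and −100 in HMGCS1 and at −106 in SREBF2, whose sterol regulatory element lay at −133, all counted from the annotated start. Counting a gene if any of its windows matched, 21 of the 27 genes with a window (77.8%) held a CCAAT box, against 39.7% of 27305 genes with windows of the same length. The GC box (GGGCGG, both strands) was present in 26 of the 27 (96.3%), against 48.3% of all genes. TCACNCCAC was present in 1 of the 27 (3.7%), against 1.39% of all genes, and the palindromic E-box CACGTG in 3 (11.1%), against 8.77%. These counts describe letters in a short window and not binding.

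Library totals ranged from 18863863 to 36410888 estimated counts. The line expressed VIM, coding for vimentin, at 3354 to 5420 CPM (counts scaled to library size with each library's TMM normalization factor), while the astrocyte markers GFAP and S100B reached at most 0.258 and 0.414 CPM, and AQP4 and ALDH1L1 at most 0.092 and 0.0928 CPM. Of the other astrocyte and glial markers, SLC1A3 lay at 6.05 to 41.3 CPM and NES at 2.99 to 11.7 CPM. Of markers of other cell types, EPCAM, CDH1, CDH5, VWF, RBFOX3 and AIF1 stayed below 0.5 CPM and PECAM1 reached at most 2.14 CPM. PTPRC at 3.57 to 15.1 CPM, CD68 at 122 to 227 CPM, KRT18 at 74.8 to 229 CPM, SYT1 at 21.1 to 43.8 CPM and SNAP25 at 7.54 to 39.8 CPM were detected throughout. The third low-dose Citri library and the third high-dose Cimicifugae library stood apart from their groups in their genome-wide profile, with 7.37% and 7.69% of counts from mitochondrial genes. As these are bulk samples, fewer cells of a type and less RNA per cell cannot be told apart. The labels do not say whether the 3 libraries of a group came from separate cultures, so the p-values reflect only how far these samples differ, and that spread may be technical.

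Across the 18 comparisons of an extract and dose with the vehicle, the 31 genes were called 149 times at an adjusted p below 0.05 (edgeR's quasi-likelihood test, Benjamini-Hochberg adjustment over all 17190 genes), and 121 of these calls were decreases. Thus 26.7% of the 558 pairs of gene and comparison were called and 81.2% of the calls were decreases. Over all tested genes 13.5% of such pairs were called (6.99% lower), and 51.8% of those calls were decreases. Of the 28 increases 15 came from a single group, Aconiti at 500 µg/mL. The calls were spread unevenly, since 10 genes were called only lower, 5 only higher, 11 in both directions and 5 in no comparison. The 5 never called were ACACA, the carboxylase that makes malonyl-CoA, FDPS, which makes farnesyl diphosphate, PMVK of the mevalonate arm, and the sterol enzymes NSDHL and TM7SF2. HMGCS1, which makes the HMG-CoA that enters the mevalonate pathway, was called lower in 15 of 18 comparisons and higher in 1, and it was not called in the medium and low doses of Bupleuri. SCD, the desaturase that makes oleate, was called lower in 11 and higher in 1. In fits that left out 1 library, 2 of the 15 decreases of HMGCS1 and 2 of the 11 of SCD were lost at least once. FADS1, a desaturase of polyunsaturated fatty acids, had 7 increases and 1 decrease, but 5 of the increases (every dose of Banhasasim and the upper doses of Cimicifugae, at 0.12 to 0.14 on the log2 scale) and the decrease were lost in at least 1 such fit. MVD, the mevalonate diphosphate decarboxylase, had 4 increases and no decrease, and 2 of the increases, with high-dose Banhasasim and Cimicifugae, were likewise lost.

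**Figure D1:**
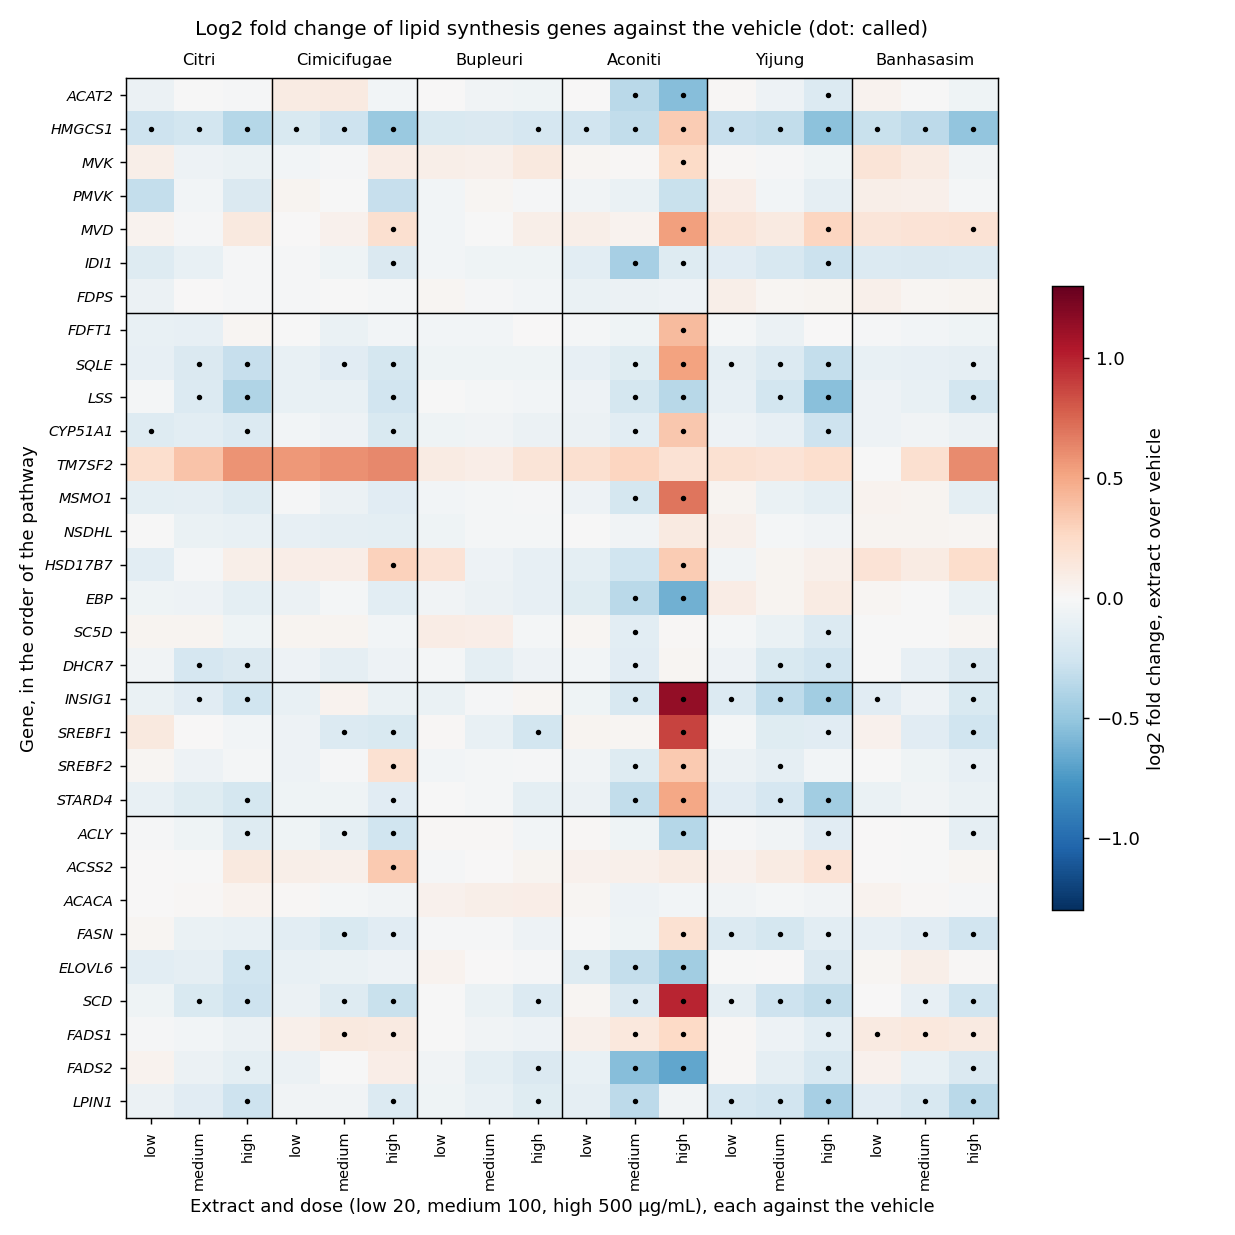
Heat map of the log2 change of the 31 genes (rows, grouped by role) in each extract and dose (columns) against the vehicle, with a dot where the change was called at an adjusted p below 0.05. Most dots lie on decreases of less than 1 log2 unit, and the high-dose Aconiti column holds 15 increases beside 7 decreases.

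The range between group means showed which genes responded most. The highest and lowest group means differed by 3.02-fold for INSIG1, 2.49-fold for SCD, 2.20-fold for SREBF1, 1.95-fold for STARD4, a carrier of sterols between membranes, and 1.89-fold for MSMO1, which removes methyl groups from lanosterol-derived sterols. In all 5 the highest mean was that of high-dose Aconiti. At the other end ACACA varied by 1.11-fold and FDPS by 1.12-fold over all groups. LSS, the lanosterol synthase, LPIN1, a phosphatidate phosphatase of glycerolipid synthesis, and IDI1, the isopentenyl diphosphate isomerase, had their highest mean in the vehicle.

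INSIG1 and SREBF1 were among the genes that rose most with high-dose Aconiti. INSIG1, which retains SREBP in the endoplasmic reticulum, stood at 283, 287 and 293 CPM in the 3 high-dose Aconiti libraries, against 126, 136 and 129 CPM in the vehicle libraries. SREBF1 stood at 87.7, 85.0 and 89.5 CPM with high-dose Aconiti and at 44.6, 49.3 and 48.9 CPM in the vehicle. All treated libraries lay far above all vehicle libraries for both genes. The log2 change was 1.14 ± 0.0369 for INSIG1 (SE derived from the test in the joint fit of 57 libraries, n = 3 each, edgeR's quasi-likelihood test, adjusted p = 5.8e-31) and 0.88 ± 0.0532 for SREBF1 (adjusted p = 7.48e-20). STARD4 averaged 68.5 ± 3.73 CPM with high-dose Aconiti and 48.3 ± 1.61 CPM in the vehicle (SD, n = 3 each), and SREBF2 averaged 113 ± 2.56 CPM with high-dose Aconiti and 89.5 ± 0.589 CPM in the vehicle. With log2 changes of 0.51 ± 0.0558 and 0.34 ± 0.0345, all 4 regulators and carriers rose. This comparison called 60.4% of all tested genes, with 5413 of 17190 genes higher.

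Of the 11 sterol enzymes, 5 rose and 2 fell at the high dose of Aconiti against the vehicle, so that 63.6% were called in a comparison that called 60.4% of all tested genes (31.5% higher and 28.9% lower). SQLE, the squalene epoxidase, stood at 92.8, 91.3 and 94.5 CPM with high-dose Aconiti, against 64.6, 64.5 and 64.7 CPM in the vehicle, with no overlap and a log2 change of 0.52 ± 0.0378 (edgeR's quasi-likelihood test, adjusted p = 4.55e-17). LSS, which acts on the product of SQLE, stood at 55.7, 55.2 and 54.6 CPM with high-dose Aconiti and at 72.6, 68.5 and 71.8 CPM in the vehicle. Adjacent steps thus moved in opposite directions, since LSS fell by 0.36 ± 0.0419 on the log2 scale (adjusted p = 1.46e-10). MSMO1 rose by 0.69 ± 0.0708, FDFT1, the squalene synthase, by 0.41 ± 0.0362 and CYP51A1, the lanosterol demethylase, by 0.35 ± 0.0471, whereas EBP, a sterol isomerase, fell by 0.62 ± 0.0689. CYP51A1 shares 2844 exon bases with another gene annotated on its strand, so its counts are uncertain. HSD17B7, a low-count gene with 2 annotated pseudogenes, rose by 0.33 ± 0.107 and was not called when the second vehicle library was left out.

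In the mevalonate arm 3 of 7 genes were higher and 2 lower, or 71.4% called beside the same 60.4% of all genes. HMGCS1 stood at 75.5, 78.0 and 68.7 CPM with high-dose Aconiti and at 61.4, 58.8 and 56.8 CPM in the vehicle. This was the only one of the 18 groups in which HMGCS1 lay above the vehicle by test (log2 change 0.33 ± 0.0492, edgeR's quasi-likelihood test, adjusted p = 1.04e-07). MVD rose by 0.53 ± 0.0617 and MVK, the mevalonate kinase, by 0.25 ± 0.0749, while ACAT2, the thiolase that supplies acetoacetyl-CoA to HMGCS1, fell by 0.55 ± 0.067. IDI1 was called lower by 0.17 ± 0.0681, a call that was lost in 4 of the 6 fits that left out 1 library of the compared groups. ACAT2 overlaps exons of SOD2 and TCP1 on the opposite strand, and no source states how the counting treated strand.

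Of the 9 fatty acid and glycerolipid genes, 3 rose and 3 fell with high-dose Aconiti, and this 66.7% again lies near the 60.4% called among all genes. SCD stood at 504, 513 and 529 CPM with high-dose Aconiti, against 263, 255 and 259 CPM in the vehicle, well above it in every library. Its log2 change of 0.99 ± 0.0335 was the largest after that of INSIG1 (edgeR's quasi-likelihood test, adjusted p = 3.82e-30). FASN, the fatty acid synthase, stood at 397, 389 and 401 CPM with high-dose Aconiti and at 344, 343 and 347 CPM in the vehicle, a smaller rise of 0.20 ± 0.042 without overlap. FADS1 rose by 0.26 ± 0.0357, while its neighbour FADS2, which desaturates the same fatty acid series at an earlier step, fell by 0.67 ± 0.0491 and had the largest decrease of any member. ELOVL6, an elongase of saturated chains, and ACLY, which releases acetyl-CoA from citrate, fell by 0.46 ± 0.0487 and 0.38 ± 0.0264. FADS1 and FADS2 overlap by 490 exon bases on opposite strands.

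Counted together, 15 of the 31 genes rose and 7 fell with high-dose Aconiti against the vehicle (71% called), where 31.5% of all genes rose and 28.9% fell. The median log2 change was 0.19 over the 31 genes and 0.01 over all tested genes. Of the 22 calls, 20 held in each of the 6 fits that left out 1 library. High-dose Aconiti libraries also carried 8.99% to 9.29% of their counts on mitochondrial genes, against 5.03% to 5.29% in vehicle libraries, and the part of this shift in the result was not tested.

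For the genes that rose most, such as INSIG1, SCD and MSMO1, the response to Aconiti was not graded by dose. At 20 µg/mL HMGCS1 and ELOVL6 were called, both lower than in the vehicle, where 2.19% of all genes were called, and the call of ELOVL6 was lost in 5 of 6 fits that left out 1 library. At 100 µg/mL 17 of the 31 genes were lower and 1 was higher, where 31.1% of all genes were called (15% lower), and 14 of these 18 calls held in every such fit. INSIG1 averaged 125 ± 6.14, 112 ± 3.66 and 288 ± 5.22 CPM at 20, 100 and 500 µg/mL. SCD averaged 264 ± 6.83, 227 ± 5.94 and 515 ± 12.3 CPM over the same doses, and MSMO1 averaged 42.6 ± 1.36, 38.1 ± 0.408 and 72.2 ± 3.4 CPM (SD, n = 3 each). The medium dose was below the vehicle for INSIG1 (log2 change −0.21 ± 0.0384) and SCD (−0.19 ± 0.034) by edgeR's quasi-likelihood test, with adjusted p of 1.73e-05 and 1.85e-05. A direct test of high against medium dose was added after these values were seen. It called 20 of the 31 genes higher and 6 lower, beside 47.1% of all genes (4261 higher and 3831 lower of 17190). In fits that left out 1 library, 16 of these increases and 2 of these decreases always held. The direct test gave log2 differences of 1.36 ± 0.0374 for INSIG1, 1.18 ± 0.0337 for SCD, 0.92 ± 0.0722 for MSMO1 and 0.82 ± 0.0573 for STARD4. FADS2, EBP, ACAT2 and ELOVL6 were by contrast below the vehicle at both upper doses, with FADS2 at 46.2 ± 0.833 CPM at 100 µg/mL and 42.6 ± 2.49 CPM at 500 µg/mL, against 67.7 ± 2.07 CPM in the vehicle. Their means fell in the order of the doses, with ACAT2 at 39.1 ± 2.19, 30.8 ± 2.52 and 26.6 ± 0.615 CPM at 20, 100 and 500 µg/mL. The means of LSS and ACLY also fell in that order, and that of FADS1 rose. The mitochondrial share was 10.6% to 10.8% at the medium dose, and so was higher there than at the high dose.

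**Figure D2:**
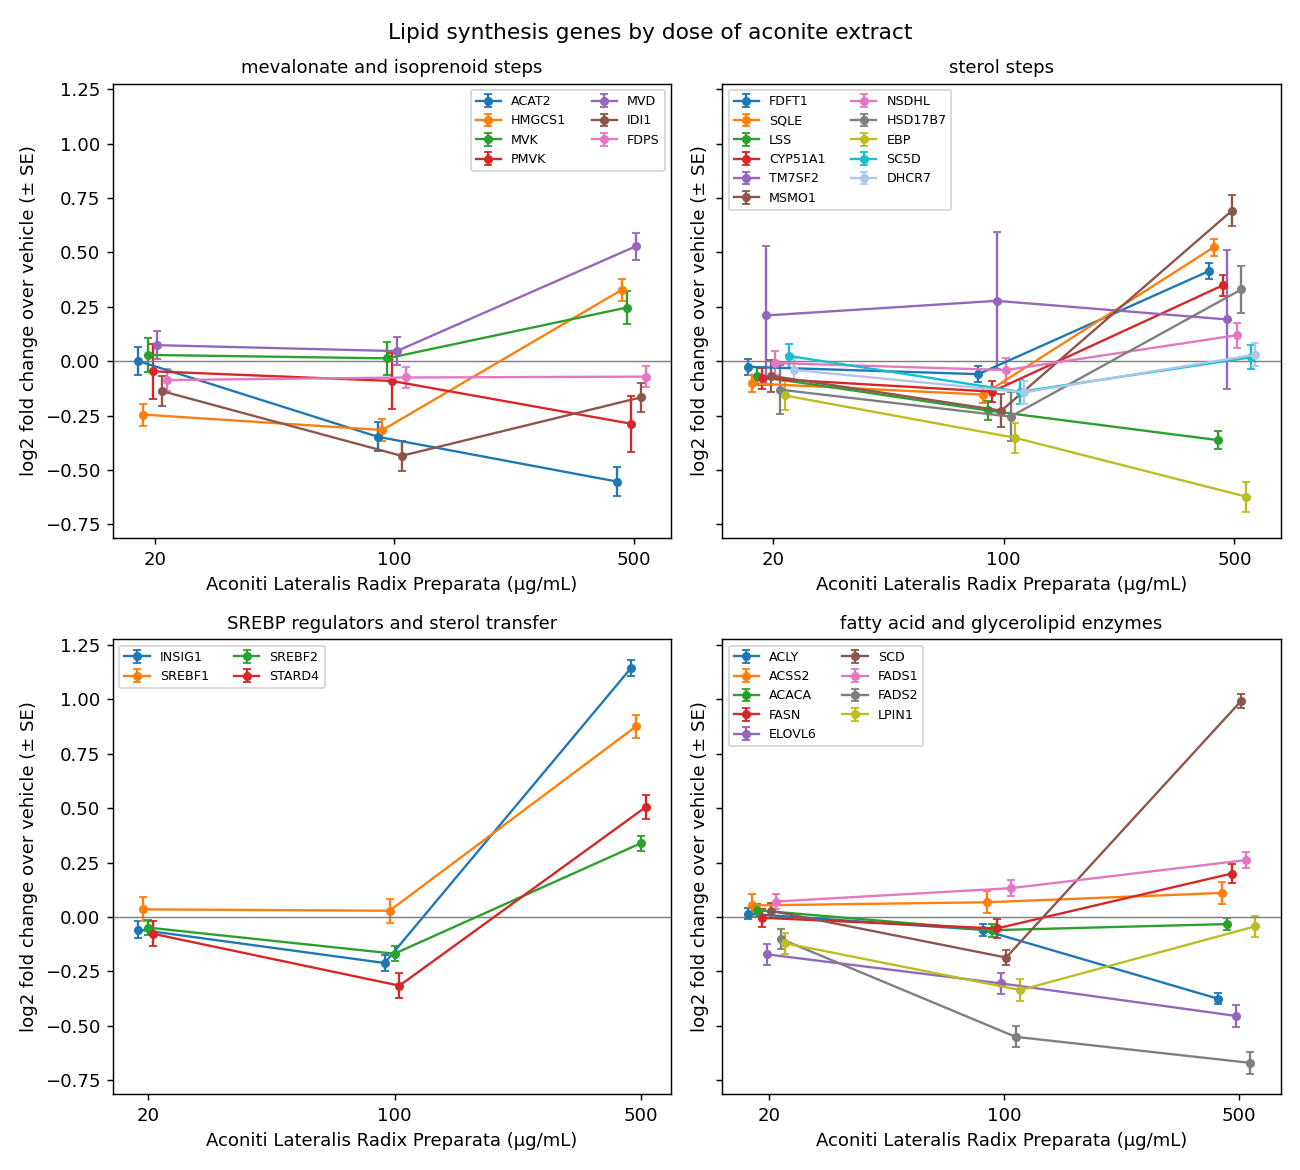
Log2 change over the vehicle (vertical axis, with SE) of the members in 4 panels by role at 20, 100 and 500 µg/mL Aconiti (horizontal axis). INSIG1, SCD, SREBF1, MSMO1, SQLE and HMGCS1 lie near or below 0 up to 100 µg/mL and above 0 at 500 µg/mL, while FADS2, EBP and ACAT2 lie below 0 at 100 and 500 µg/mL.

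Within the code set the pattern was alike. High against low dose of Aconiti, 16 of the 31 genes were higher and 6 lower, where 57.8% of all genes were called (30.4% higher and 27.4% lower). INSIG1 differed by 1.20 ± 0.0371, SCD by 0.96 ± 0.0335, SREBF1 by 0.84 ± 0.0533 and SQLE by 0.63 ± 0.0382 on the log2 scale, all higher at the high dose. Called with the same sign against both the vehicle and the low dose were 15 increases and 6 decreases. Both comparisons share the high-dose Aconiti libraries and so are not independent. The matching count over all tested genes is not given, so these numbers are description only. MVK against the low dose was not called without the second high-dose or the second low-dose library, and NSDHL, higher by 0.13 ± 0.0567, was not called in 5 of 6 such fits. Bupleuri, the other herb of the set, did not share the rise. For the change between high and low dose, Bupleuri minus Aconiti differed by −1.14 ± 0.0475 for SCD, −1.10 ± 0.0769 for SREBF1, −1.09 ± 0.0527 for INSIG1 and −0.74 ± 0.152 for HSD17B7 (edgeR's quasi-likelihood test, adjusted p from 1.15e-25 to 6e-05). In total 21 of the 31 genes differed between the herbs, 15 of them with the lower change in Bupleuri, beside 44% of all genes.

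Other genes of the pathway were counted by role in the same comparison of high-dose Aconiti with the vehicle, in which 60.4% of all tested genes were called. Of 10 genes of SREBP processing and sterol sensing, 5 rose and 2 fell, among them INSIG2 with a log2 change of 0.61 ± 0.111, SCAP, the escort of SREBP, with 0.18 ± 0.0442, and the ligase RNF145 with −0.44 ± 0.0506. Of 10 genes of cholesterol transport and storage, 7 rose and 1 fell. NPC1, which exports cholesterol from lysosomes, averaged 459 ± 5.34 CPM with high-dose Aconiti and 196 ± 6.86 CPM in the vehicle, and the oxysterol-binding protein gene OSBP rose by 0.76 ± 0.0367. Of 7 LXR genes and targets, 4 rose and 2 fell. ABCA1, which exports cholesterol, averaged 369 ± 6.98 CPM with high-dose Aconiti and 64.4 ± 0.854 CPM in the vehicle, a log2 change of 2.52 ± 0.042 (edgeR's quasi-likelihood test, adjusted p = 6.75e-43), and its relative ABCG1 rose by 3.70 ± 0.409 from a low level. Of 17 further fatty acid genes tested, 9 rose and 6 fell, with FADS3 at 1.26 ± 0.0569, MID1IP1, an activator of acetyl-CoA carboxylase, at 1.01 ± 0.0475, and SCD5, a second stearoyl-CoA desaturase, at −1.52 ± 0.174. Of 11 other sterol and isoprenoid genes, 6 rose and 3 fell. The share called in these 5 lists ran from 70% for SREBP processing to 88.2% for the further fatty acid genes.

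With Yijung at 500 µg/mL most of the called genes were lower. Against the vehicle 18 of the 31 genes fell and 2 rose, where 32% of all genes were called (16.7% lower), and 15 fell when only high-dose Yijung and vehicle libraries were fitted. LSS stood at 47.6, 47.8 and 50.2 CPM with high-dose Yijung, against 72.6, 68.5 and 71.8 CPM in the vehicle. STARD4 stood at 34.4, 37.3 and 33.5 CPM with high-dose Yijung and at 49.7, 46.5 and 48.6 CPM in the vehicle. HMGCS1 stood at 40.9, 41.7 and 39.2 CPM with high-dose Yijung and at 61.4, 58.8 and 56.8 CPM in the vehicle. None of the 3 genes had overlapping groups, but they were picked for their large called changes, so this adds no support. The log2 changes of LSS, STARD4 and HMGCS1 were −0.55 ± 0.042, −0.46 ± 0.0587 and −0.54 ± 0.0515 (edgeR's quasi-likelihood test, adjusted p = 1.34e-14, 2.49e-08 and 1.01e-11). INSIG1 stood at 91.4, 101 and 94.1 CPM with high-dose Yijung, its lowest group, and fell by 0.45 ± 0.0385. SCD fell by 0.32 ± 0.034, SQLE by 0.31 ± 0.0393, LPIN1 by 0.43 ± 0.0489 and IDI1 by 0.28 ± 0.068. MVD rose by 0.28 ± 0.0624, and ACSS2, which makes acetyl-CoA from acetate, by 0.17 ± 0.0505, the second call being lost without the first vehicle library.

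By role, the decreases with high-dose Yijung covered 3 of 7 mevalonate genes, 5 of 11 sterol genes, 3 of 4 regulators and carriers and 7 of 9 fatty acid genes. Of all 17190 tested genes 2876 were lower in this comparison. In the 6 fits that left out 1 library, 14 of the 20 calls always held. FASN (2 fits), SREBF1 and ACAT2 (4 fits each), SC5D (3 fits), FADS1 and ACSS2 (1 fit each) were not always called. FASN stood at 299.5, 299 and 341 CPM with high-dose Yijung, against 344, 343 and 347 CPM in the vehicle, so that the third library nearly reached the vehicle. At the medium dose 10 of the 31 genes were lower and none higher, where 6.28% of all genes were called. At the low dose 6 were lower and none higher, where 6.38% were called. Fits that left out 1 library called 7 to 9 genes at the medium dose. At the low dose they called 3 to 4, with 3 without the second low-dose library. SREBF2 at the medium dose and SCD and SQLE at the low dose were lost in all 6 such fits. LSS averaged 66.0 ± 1.96, 60 ± 0.594 and 48.5 ± 1.46 CPM at 20, 100 and 500 µg/mL (SD, n = 3 each), in the order of the doses.

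Within its code set, high-dose Yijung lay below low-dose Yijung for 15 of the 31 genes and above it for none, where 21.7% of all genes were called (11.5% lower). LSS differed by −0.44 ± 0.0414, STARD4 by −0.31 ± 0.0578, INSIG1 by −0.27 ± 0.0382 and HMGCS1 by −0.24 ± 0.0512. All 15 were also lower than in the vehicle, in a comparison that shares the high-dose Yijung libraries and so is not independent. ACAT2 and SC5D, not called in 4 of 6 fits each, and DHCR7, which completes cholesterol synthesis, in 2 of 6, depended on single libraries. Of the other pathway genes, ABCA1 was lower with high-dose Yijung than with the vehicle by 0.46 ± 0.0461 on the log2 scale, HACD2, a dehydratase of fatty acid elongation, by 0.42 ± 0.0447 and INSIG2 by 0.36 ± 0.12, the last with overlapping groups. The first high-dose Yijung library had 8.21% of its counts on mitochondrial genes, against 6.58% and 5.94% in the other 2.

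With Banhasasim, the other formula of the set, most calls were decreases as well. At 500 µg/mL 12 of the 31 genes were lower and 2 higher than in the vehicle, where 16.8% of all genes were called (8.82% lower). HMGCS1 stood at 41.6, 41.0 and 41.9 CPM with high-dose Banhasasim, against 61.4, 58.8 and 56.8 CPM in the vehicle, a log2 change of −0.51 ± 0.0504 (edgeR's quasi-likelihood test, adjusted p = 4.13e-11). LPIN1 stood at 35.1, 33.9 and 33.3 CPM with high-dose Banhasasim and at 44.1, 41.6 and 44.5 CPM in the vehicle, and fell by 0.35 ± 0.0477. SREBF1 stood at 37.9, 39.4 and 42.0 CPM with high-dose Banhasasim, its lowest group, and at 44.6, 49.3 and 48.9 CPM in the vehicle, and fell by 0.26 ± 0.0553. The groups did not overlap for any of these genes, which were picked for their large called changes. FASN stood at 289, 298 and 285 CPM with high-dose Banhasasim and fell by 0.25 ± 0.042. SQLE and SREBF2, lower by 0.12 and 0.11 on the log2 scale, were not called in any of the 6 fits that left out a library, and 9 of the 14 calls held in all of them.

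The medium and low doses of Banhasasim called 4 genes lower and 1 higher (8.32% of all genes) and 2 lower and 1 higher (5.75%). These counts were 3 at the medium dose without the second or the third vehicle library, and 1 at the low dose without the first low-dose or the second vehicle library. High against low dose, 10 of the 31 genes were lower and none was higher, where 6.67% of all genes were called (3.58% lower). SREBF1 differed by −0.32 ± 0.0538, SCD by −0.27 ± 0.0334, FADS2 by −0.25 ± 0.0452 and HMGCS1 by −0.22 ± 0.0501. Of these 10 calls 7 held in every fit that left out 1 library, while MVK was lost in all 6, FASN in 4 and DHCR7 in 3. Of the other pathway genes, MYLIP, a ligase of lipoprotein receptors, was lower than in the vehicle by 0.40 ± 0.0662 and FADS3 was higher by 0.34 ± 0.0588. For the change between high and low dose, Yijung minus Banhasasim differed by −0.32 ± 0.08 for STARD4, −0.27 ± 0.0575 for LSS and −0.22 ± 0.0534 for INSIG1 (edgeR's quasi-likelihood test, adjusted p = 0.00618, 0.000973 and 0.00375). In total 7 of the 31 genes differed between the formulas, beside 10.1% of all genes, and 3 of these calls held in each of the 12 fits that left out 1 library. FASN, at 0.18 ± 0.0592, was not called in 7 of the 12, and leaving out the second high-dose Yijung library raised the count to 11 while leaving out the first Banhasasim library at either dose or the third high-dose Yijung library lowered it to 3 and leaving out the second low-dose Yijung library to 4.

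With Citri at 500 µg/mL 12 of the 31 genes were lower than in the vehicle and none was higher, where 21.6% of all genes were called (11.8% lower). LSS stood at 54.6, 53.6 and 54.1 CPM with high-dose Citri, against 72.6, 68.5 and 71.8 CPM in the vehicle, with a log2 change of −0.39 ± 0.0414 (edgeR's quasi-likelihood test, adjusted p = 3.13e-10). SQLE stood at 52.7, 52.4 and 52.1 CPM with high-dose Citri and at 64.6, 64.5 and 64.7 CPM in the vehicle, a change of −0.30 ± 0.0391. SCD stood at 216, 220.0 and 208 CPM with high-dose Citri and at 263, 255 and 259 CPM in the vehicle, a change of −0.27 ± 0.0339. No treated library reached the vehicle range for these genes, picked for their large called changes, nor for INSIG1, at 109, 109 and 108 CPM with high-dose Citri. HMGCS1 fell by 0.37 ± 0.0506, whereas SREBF1, at 48.1, 45.8 and 45.3 CPM with high-dose Citri, overlapped the vehicle and was not called. FADS2 was called lower by 0.13 ± 0.0466 and lost its call in 5 of 6 fits that left out a library, CYP51A1 and DHCR7 without the first vehicle library, and the other 9 calls always held. The medium dose called 6 genes lower (2.07% of all genes), or 3 without the second medium-dose library. The low dose called HMGCS1 and CYP51A1 lower (1.88%), neither of them without the third low-dose library and 1 without any of the 3 vehicle libraries.

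High against low dose of Citri, 9 of the 31 genes were lower and 1 was higher, where 18.2% of all genes were called (10% lower). LSS differed by −0.36 ± 0.0412, SCD by −0.22 ± 0.0338 and SQLE by −0.20 ± 0.0391. FDFT1, higher by 0.12 ± 0.0364, and FASN, FADS2 and SREBF1, all lower, were not called without the third low-dose library, which stood apart. Leaving out both libraries that stood apart gave 9 lower and none higher, though not the same 9. FADS2, FASN and SREBF1 were then not called (edgeR's quasi-likelihood test, adjusted p = 0.0765, 0.221 and 0.14), and other members were called instead. Of the other pathway genes NPC1 averaged 268 ± 0.559 CPM with high-dose Citri and 196 ± 6.86 CPM in the vehicle, a log2 change of 0.45 ± 0.0343, GGPS1, which makes geranylgeranyl diphosphate, rose by 0.24 ± 0.052 and TMEM97, a sterol-binding protein, fell by 0.23 ± 0.0559.

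With Cimicifugae at 500 µg/mL 11 of the 31 genes were lower and 5 higher than in the vehicle. Of all 17190 tested genes 32.5% were called (17.5% lower), with 2589 genes higher. HMGCS1 stood at 43.1, 45.7 and 37.9 CPM with high-dose Cimicifugae, against 61.4, 58.8 and 56.8 CPM in the vehicle, a log2 change of −0.48 ± 0.0507 (edgeR's quasi-likelihood test, adjusted p = 1.11e-10). SCD stood at 205, 210.2 and 219 CPM with high-dose Cimicifugae and at 263, 255 and 259 CPM in the vehicle, a change of −0.29 ± 0.0338. ACSS2 stood at 46.2, 46.5 and 48.9 CPM with high-dose Cimicifugae and at 34.0, 38.4 and 39.5 CPM in the vehicle, a change of 0.34 ± 0.0495 (adjusted p = 3.5e-07). The groups did not overlap for any of the 3, which were picked for their large called changes, and ACSS2 had its highest mean here. SREBF2 rose by 0.20 ± 0.0343 while SREBF1 fell by 0.20 ± 0.0555, the SREBF1 call being lost when only these groups were fitted (edgeR's quasi-likelihood test, adjusted p = 0.0727). ACLY and LSS fell by 0.25 each, with SE of 0.0263 and 0.0408.

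Some of these calls rested on the third high-dose Cimicifugae library, which stood apart. Without both libraries that stood apart, IDI1 (log2 change −0.09, adjusted p = 0.278) and STARD4 (−0.08, adjusted p = 0.281) were no longer called against the vehicle, and 5 genes were higher and 10 lower. A fit of the compared groups alone called 7 genes. Of the 16 calls 8 held in every fit that left out 1 library, and HSD17B7, IDI1 and STARD4 were each lost in 3 of 6. At the medium dose 6 genes were lower and 1 was higher (6.63% of all genes), or 4 in all without the first medium-dose library, and at the low dose HMGCS1 alone was lower (1.27%), a call lost in 5 of 6 fits. High against low dose, 9 genes were lower and 4 higher, where 25.1% of all genes were called (13.5% lower), with 2004 of 17190 genes higher. The counts were 6 lower and 3 higher without both libraries that stood apart. HMGCS1 differed by −0.29 ± 0.0511, SREBF2 by 0.27 ± 0.0343 and ACSS2 by 0.26 ± 0.0489, and these calls held in every such fit. NR1H3, which encodes a liver X receptor, was higher with high-dose Cimicifugae than with the vehicle by 0.72 ± 0.147, at 3.79 ± 0.355 and 2.31 ± 0.251 CPM, while HACD2 fell by 0.37 ± 0.0442 and RNF145 by 0.36 ± 0.0498.

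For the change between high and low dose, Citri minus Cimicifugae differed by −0.33 ± 0.0651 for FADS2, −0.32 ± 0.0486 for SREBF2 and −0.20 ± 0.058 for LSS (edgeR's quasi-likelihood test, adjusted p = 0.00059, 7.75e-06 and 0.0169). IDI1 differed by 0.33 ± 0.0944, but its adjusted p was 0.455 without the 2 libraries that stood apart. In total 5 of the 31 genes differed, beside 11.1% of all genes. That count was 11 without the second high-dose Cimicifugae library, 9 and 8 without the first and second low-dose Citri library, and 3 without the third.

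Few of the 31 genes were called with Bupleuri. At 500 µg/mL 5 of the 31 genes were lower and none higher, where 7.02% of all genes were called (4.01% lower). SREBF1 stood at 40.1, 37.7 and 43.1 CPM with high-dose Bupleuri, against 44.6, 49.3 and 48.9 CPM in the vehicle, a log2 change of −0.24 ± 0.0559 (edgeR's quasi-likelihood test, adjusted p = 0.00306, or 0.0528 without the second high-dose Bupleuri library). SCD stood at 224, 227 and 236 CPM with high-dose Bupleuri and at 263, 255 and 259 CPM in the vehicle, a change of −0.18 ± 0.0338. HMGCS1 fell by 0.22 ± 0.0501 to 51.1, 50.5 and 50.2 CPM with high-dose Bupleuri. SREBF1 and SCD lay below the vehicle range in all 3 libraries, and they were also the 2 genes called lower at high than at low dose (−0.25 ± 0.0555 and −0.18 ± 0.0337), where 4.37% of all genes were called (2.45% lower). FADS2 and LPIN1 lost their calls against the vehicle in 2 and 4 of the 6 fits that left out 1 library, and 3 genes were called without the second high-dose Bupleuri or the first vehicle library.

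At the medium and low doses of Bupleuri edgeR's quasi-likelihood test called none of the 31 genes, where 0.413% and 0.0756% of all genes were called. At an unadjusted p below 0.05 there were 6 and 2 genes, beside 9.19% and 6.46% of all genes. DESeq2 called none at either dose, a fit with a replicate block called 1 at the medium dose, and leaving out the 2 libraries that stood apart gave 1 at each dose. LSS stood at 71.8, 65.0 and 70.4 CPM with high-dose Bupleuri and SQLE at 62.6, 62.4 and 61.3 CPM, and neither was called. Of the other pathway genes, FADS3 was higher at the high dose of Bupleuri than in the vehicle by 0.35 ± 0.0597 and MYLIP was lower by 0.32 ± 0.067.

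**Figure D3:**
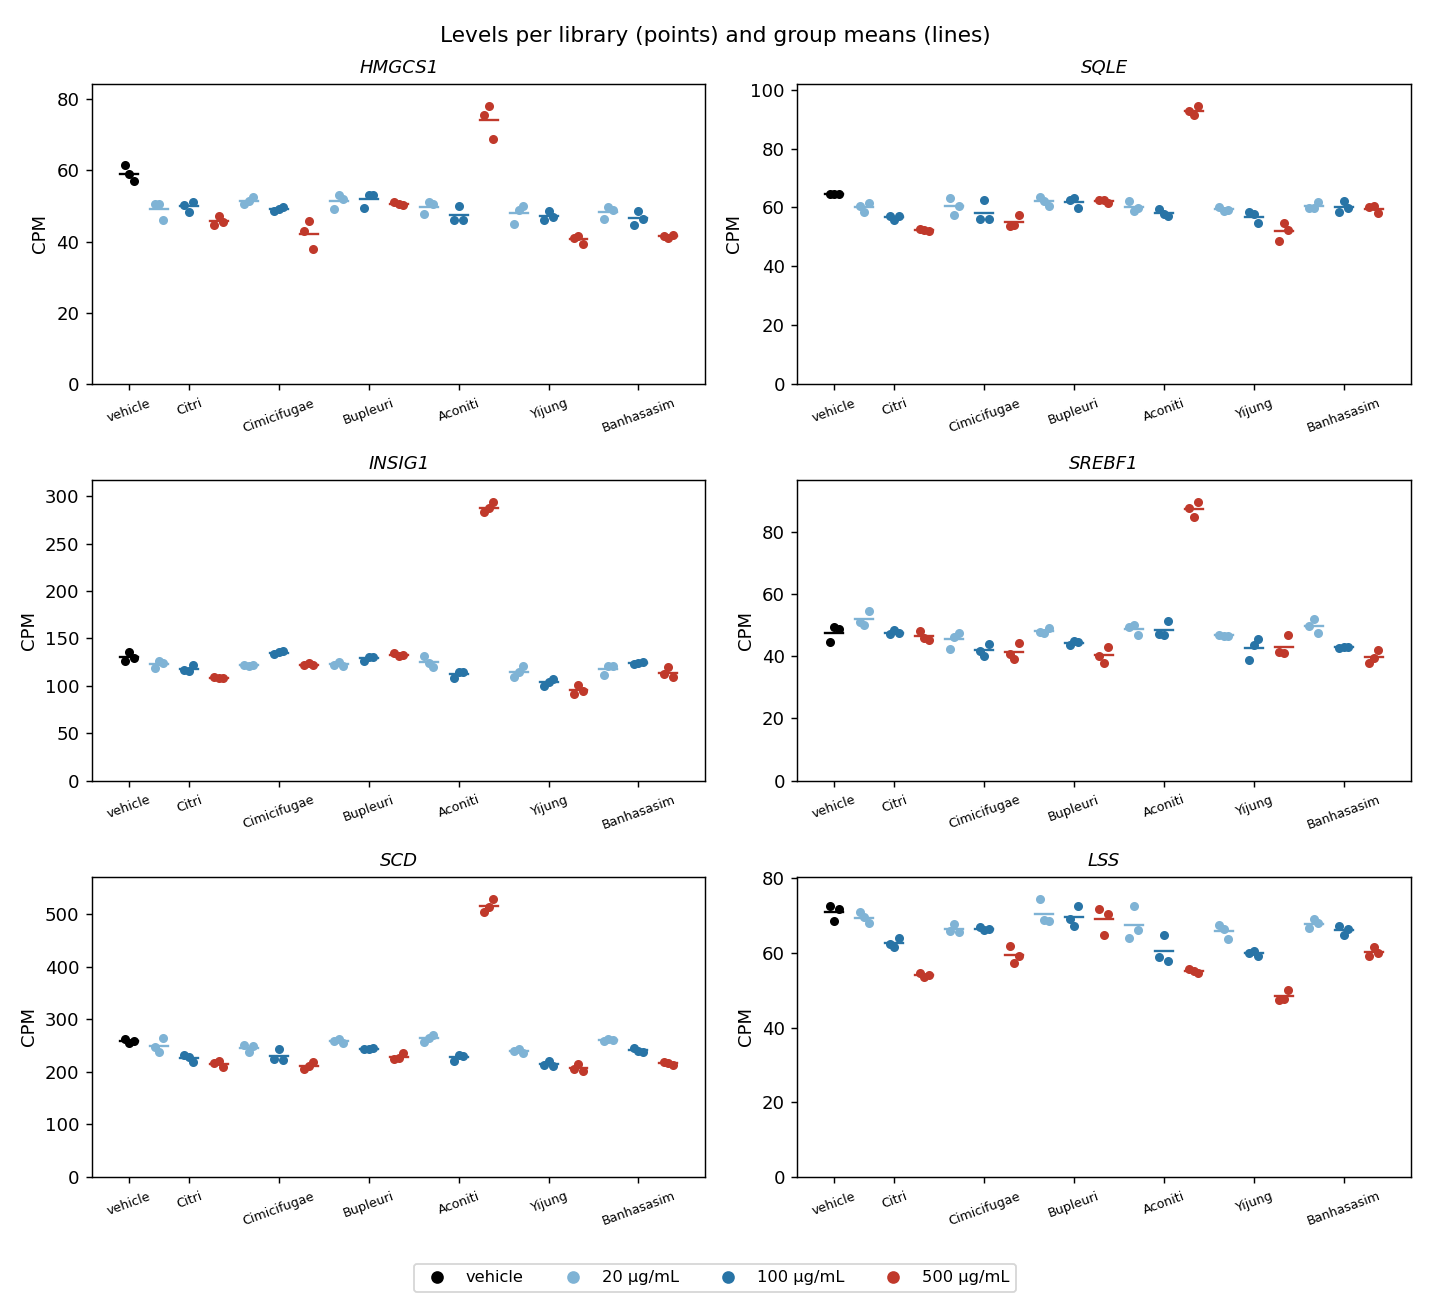
CPM of HMGCS1, SQLE, INSIG1, SREBF1, SCD and LSS in every library (points, with a line at each group mean), for each extract at 20, 100 and 500 µg/mL and for the vehicle. High-dose Aconiti stands above every other group for the first 5 genes but not for LSS, which is lowest with high-dose Yijung.

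Set side by side within extracts, where code set and vehicle play no part, SCD and LSS were each lower at high than at low dose in 5 of 6 extracts. The exception was Aconiti for SCD, which was higher there, and Bupleuri for LSS, which was not called there. ACLY was lower at high dose in 5 of 6 extracts, Bupleuri again being the exception. SCD, LSS and ACLY had the most such decreases of all members, so their recurrence is description and not further support. How many of all tested genes were lower in as many extracts is not given. In fits restricted to the groups compared (edgeR's quasi-likelihood test), the ACLY calls for Citri and Yijung were lost at adjusted p of 0.0507 and 0.0512 and the LSS call for Cimicifugae at 0.0851. With no filter on low counts the ACLY call for Banhasasim was lost at 0.0667. HMGCS1 was lower at high than at low dose in 3 of 6 extracts and higher in Aconiti, although it was below the vehicle in 15 of 18 groups. Its low-dose groups lay already below the vehicle, at 49.1 ± 2.63 CPM with Citri, 49.8 ± 1.84 CPM with Aconiti and 48.3 ± 1.68 CPM with Banhasasim, against 59.0 ± 2.26 CPM in the vehicle (SD, n = 3 each). In this step the extracts and the separate code set of the vehicle cannot be told apart.

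**Figure D4:**
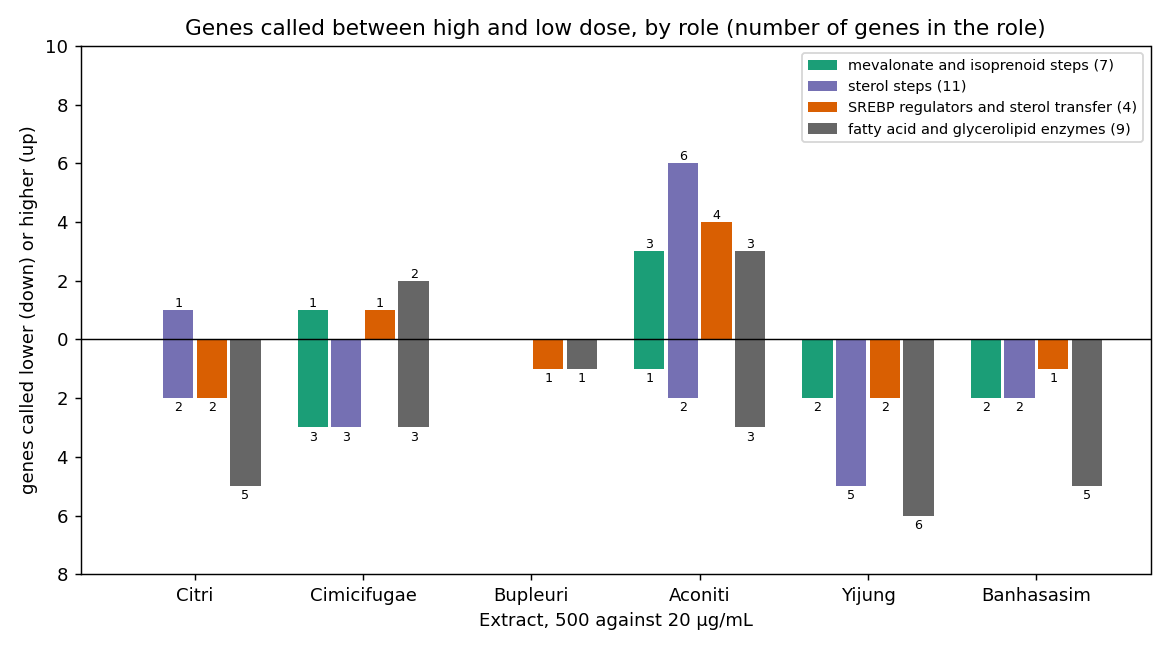
Number of the 31 genes called higher (upward bars) or lower (downward bars) at 500 than at 20 µg/mL of each extract, divided by role. Aconiti has 16 genes higher and 6 lower, and Yijung and Banhasasim have 15 and 10 lower and none higher.

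Bojungikgi-tang had 1 library per dose, so its values carry no test. LSS stood at 53.0 CPM in the high-dose and 68.7 CPM in the low-dose library and was the only one of the 31 genes past a 1.25-fold difference, in a comparison in which 10.7% of all genes passed it. LPIN1 stood at 33.1 CPM in the high-dose and 40.5 CPM in the low-dose library. Of the 31 genes 20 lay below and 6 above the range of the 3 vehicle libraries in the high-dose library, where 30.5% of all genes lay below and 31.6% above it. HMGCS1, at 43.5 CPM, and INSIG1, at 104 CPM, were among those below.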

How the data were processed

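RNA was measured in 60 libraries of SW1783 cells, prepared with a directional MGI kit and read as 100 bp pairs, per the labels' protocols. The authors deposited 1 table of expected counts per gene and library, estimated read counts that are not normalized. FastQC 0.11.9, Trim Galore 0.6.5, STAR 2.7.3a, RSEM 1.3.3 and builds hg38 and GRCh38 are named, per the submitters' processing notes. No source used here gives the annotation release or the strand setting. Counts (9.22% of values not whole) were rounded, genes were filtered with filterByExpr by group, and the 57 libraries of the 19 groups with 3 replicates were fitted together with edgeR 4.0.16 (quasi-likelihood test, TMM factors) in R 4.3.3. Benjamini-Hochberg adjusted p-values over 17190 genes were called below 0.05. The SE of a log2 change was derived from its test, as the size of the change divided by the square root of the F statistic. It thus rests on the spread estimated over all 57 libraries and not on the compared groups alone. CPM used the TMM factors and are not divided by gene length, so that levels were compared within a gene. The 28 comparisons were each dose against the vehicle, high against low dose, the difference in that change between extracts of a code set, and Aconiti high against medium dose, added after values were seen. Alternatives were RLE factors, no filter, DESeq2 1.42.0, the compared groups alone, a replicate block, leaving out each library and, chosen after seeing the data, leaving out the 2 libraries that stood apart. Replicates differed by more than sampling noise, with a chi-square per degree of freedom of 1.77 to 24.0 over 57 pairs, and were counted separately. Library totals of 18863863 to 36410888 counts limit the precision chiefly for low-count genes such as HSD17B7 and TM7SF2.

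The 31 genes and the lists of other pathway genes were chosen with earlier results of these data known. Every listed gene could be named. Values by library were given for HMGCS1, SQLE, LSS, INSIG1, SREBF1, FASN and SCD and, per extract, for the up to 3 members with the largest change among those called in 1 direction against both the low dose and the vehicle. As those members were picked by their calls, a lack of overlap between their groups is description and not further support. For differences between extracts the up to 4 largest called members were named, and of the other pathway genes the up to 3 largest called changes per comparison. Further other genes named for high-dose Aconiti (INSIG2, SCAP, RNF145, NPC1, OSBP, FADS3 and MID1IP1) were chosen after their values were seen. Promoter sequences came from RefSeq (GRCh38.p14), and exon overlaps and pseudogenes from GENCODE annotation of GRCh38.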

Additional observations from a re-analysis of the deposited data

Results flagged for a closer look

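The following results were singled out because a direct test found the change between high and low dose to differ between the extracts of a code set. Each was tested as an interaction in edgeR's quasi-likelihood model.

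Between Bupleuri and Aconiti 21 of the 31 genes differed, beside 44% of all genes, with Bupleuri minus Aconiti at −1.14 for SCD, −1.10 for SREBF1, −1.09 for INSIG1 and −0.74 for HSD17B7 on the log2 scale. Between Citri and Cimicifugae 5 of the 31 genes differed, beside 11.1% of all genes, with Citri minus Cimicifugae at −0.33 for FADS2, −0.32 for SREBF2, −0.20 for LSS and 0.33 for IDI1. The value of IDI1 was 0.14 without the 2 libraries that stood apart, and was then not called. Between Yijung and Banhasasim 7 of the 31 genes differed, beside 10.1% of all genes, with Yijung minus Banhasasim at −0.32 for STARD4, −0.27 for LSS, −0.22 for INSIG1 and 0.18 for FASN, the last not called in 7 of 12 fits that left out 1 library.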

How the results depend on the processing

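None of the 280 calls of the 31 genes changed direction under any alternative run. Calls were lost in 4 of 280 with RLE factors, 10 with DESeq2, 2 with a replicate block, 14 without the 2 libraries that stood apart, 40 with no filter on low counts, 48 in fits restricted to the compared groups and 273 of 1878 when a library was left out. RLE factors moved the median of all genes by at most 0.00645 on the log2 scale.

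The number of the 31 genes called moved by more than 1.5 times as follows, with the cause not tested. For Citri low against vehicle, 2 became 1 with RLE factors, 0 in such a restricted fit and 1 without the 2 libraries that stood apart. For Cimicifugae high against vehicle, 16 became 7 in the restricted fit. For Cimicifugae medium against vehicle, 7 became 3 with no filter. For Cimicifugae low against vehicle, 1 became 2 with DESeq2, 2 in the restricted fit and 2 with no filter. For Bupleuri medium against vehicle, 0 became 1 with the replicate block and 1 without the 2 libraries, which also gave 1 for Bupleuri low against vehicle. For Aconiti low against vehicle, 2 became 1 with DESeq2, 1 in the restricted fit and 1 with no filter. For Banhasasim low against vehicle, 3 became 1 with no filter and 5 without the 2 libraries. High against low dose, the restricted fit gave 5 for Citri (10 in all groups together), 5 for Cimicifugae (13) and 4 for Bupleuri (2). For Citri minus Cimicifugae, 5 became 1 in the restricted fit and 3 without the 2 libraries, and for Yijung minus Banhasasim, 7 became 2 in the restricted fit and 4 with no filter.

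Leaving out each library in turn gave 1 to 2 for Aconiti low against vehicle, 1 to 3 for Banhasasim low, 3 to 4 for Banhasasim medium, 3 to 5 for Bupleuri high, 0 to 1 for Cimicifugae low, 4 to 6 for Cimicifugae medium, 0 to 3 for Citri low, 3 to 6 for Citri medium and 3 to 4 for Yijung low, and 3 to 11 for both Citri minus Cimicifugae and Yijung minus Banhasasim. The labels number the replicates in every group, but same-numbered libraries did not deviate together (correlations of −0.05 to 0.095, none of 25 comparisons with all above 0.1), so the numbers were not taken as pairs, and the replicate block changed no other count by more than 1.5 times.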
